A study of Mus musculus with 4 samples.

Results

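Perivascular and meningeal fibroblasts, the collagen-producing cells that lie on the larger brain vessels and in the membranes around the brain, were picked out of whole-brain single-cell RNA sequencing by the genes they express. Of 12487 deposited cell barcodes, 10067 had at least 400 detected genes and at most 20% mitochondrial UMIs (unique molecular identifiers, tags that mark single RNA molecules), and 62 of these cells were fibroblasts. A fibroblast had a UMI of at least 3 of 6 genes (Dcn, Col1a1, Col1a2, Col3a1, Lum and Slc6a13), of at most 2 of 4 endothelial genes (Cldn5, Flt1, Pecam1, Cdh5), of at most 2 of 4 mural genes (Kcnj8, Abcc9, Rgs5, Higd1b) and of at most 1 of Mog, Aqp4 and Tmem119. The 6 genes therefore chose the cells, and their levels against other cells are a description and were not tested.

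The brains came from 4 male C57BL/6J mice at postnatal day 90, all dissociated with enzymes, and each gave 1 library of 3′-end 10x reads. In 2 animals no inhibitor was added, and in the other 2 actinomycin D and triptolide, which block transcription, were present from perfusion to digestion, with anisomycin, which blocks translation, from dissection on. The comparison asks how expression after enzymatic dissociation differs without and with these inhibitors. No brain here was dissociated without enzymes, so effects of the procedure and of the inhibitors themselves cannot be told apart. According to the study's methods the meninges were stripped off as far as possible, so the meningeal cells here are those that stayed on the tissue. In what follows "without inhibitors" and "with inhibitors" name these groups, n is the number of animals, and a level is in CPM, a gene's UMIs scaled to 1000000 UMIs summed over an animal's fibroblasts. A 3′ UMI counts 1 end of a molecule, so levels were not scaled for gene length.

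Brain fibroblasts lie outside the endothelium and its mural cells, on arterioles and venules, and in the pia, arachnoid and dura. They secrete fibrillar collagens and small proteoglycans such as decorin and lumican, add laminins to the basement membrane beneath the astrocyte endfeet, and carry transporters for amino acids, organic anions and GABA. In the arachnoid, a fibroblast-related barrier layer joined by tight and adherens junctions separates the cerebrospinal fluid from the dura. Fibroblasts of the meninges are also a source of retinoic acid and of bone morphogenetic proteins.

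There were 11 and 17 fibroblasts in the 2 libraries without inhibitors and 16 and 18 in those with inhibitors. Their share of passing cells was 0.490% (exact 95% binomial interval 0.245% to 0.874%) and 0.603% (0.352% to 0.964%) without inhibitors, and 0.753% (0.431% to 1.22%) and 0.626% (0.371% to 0.987%) with them. The means of 0.546% ± 0.0803 and 0.689% ± 0.0899 (SD, n = 2 each) differed by -0.143 percentage points, with every animal of the inhibitor group above the other 2. The exact two-sided permutation p was 0.333, which is the smallest that 2 animals against 2 can give. These intervals cover counting error only. Summed over its fibroblasts, an animal gave 40511 or 99730 UMIs in the group without inhibitors and 86932 or 78537 in the other, and a fibroblast had a median of 3585 UMIs against 1597 in all passing cells, with a range from 625 to 26606. Of 206 barcodes scored as candidate doublets, 0 were fibroblasts. Their doublet scores were nevertheless high, with medians of 0.450 and 0.425 in the 2 kinds of cell described next against 0.150 in all passing cells of the 4 libraries, and the part of doublets in what follows was not tested.

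The defining markers of fibroblasts were present in every animal, as the rule requires. Col1a2, a chain of type I collagen, was at 741, 1013, 1069.8 and 904 CPM in the 2 animals without and the 2 with inhibitors, and 58 of 62 cells had a UMI of it. Col1a1, the other chain, was at 716, 521, 541 and 318 CPM and Col3a1, type III collagen, at 543, 381, 276 and 497 CPM. Dcn, encoding decorin, which binds collagen fibrils, was the most uneven, at 3481, 862, 587 and 560.2 CPM. The first animal without inhibitors stood above the other 3, and 48.2% of its Dcn UMIs lay in 1 cell. Lum, encoding lumican, was at 642, 30.1, 57.5 and 166 CPM, again highest in that animal. Slc6a13, a GABA and taurine transporter, was at 272, 170.5, 322 and 382 CPM. In all other passing cells the 6 genes summed to 45.5 CPM, against 2827 to 6393 CPM in fibroblasts. Of the 15 fibroblast markers that the rule did not use, 15 were detected and 13 had a UMI in at least 25% of the fibroblasts; their summed level was 7039 to 11256 CPM, against 575 CPM in other passing cells and 2119 CPM in pericyte-type cells.

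The fibroblasts were divided into 2 kinds by Slc47a1, a transporter of organic cations, with a border that was not sharp, as described below. This split was chosen after the values had been seen, the kinds were not tested against each other, and all that follows on them is a description. At least 1 Slc47a1 UMI was found in 30 cells, and 32 cells had none. The Slc47a1-positive cells numbered 4 of 11 and 12 of 17 without inhibitors, and 8 of 16 and 6 of 18 with inhibitors, which as a mean was 53.5% ± 24.2 and 41.7% ± 11.8 (SD, n = 2 each; exact two-sided permutation p = 0.667). They were much deeper, with a median of 6569.5 UMIs and a range from 3163 to 26606, against 1796.5 and 625 to 6031 in the Slc47a1-negative cells, so a cell with no Slc47a1 UMI is not shown to lack the transcript. To compare shares of cells at equal depth, every cell was thinned to 600 UMIs, which left out 0 fibroblasts.

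**Figure D1:**
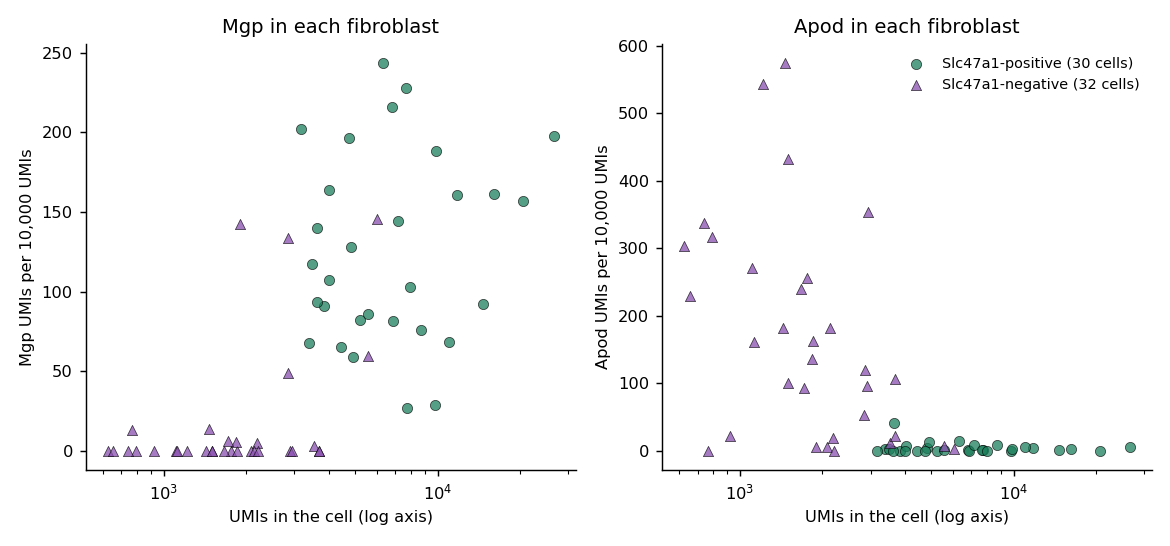
Each point is 1 fibroblast, with its UMIs on a log axis and its UMIs of Mgp (left) or Apod (right) per 10000; circles mark the 30 Slc47a1-positive cells and triangles the 32 Slc47a1-negative cells. All 30 circles lie above 0 for Mgp against 11 of the 32 triangles, and 30 triangles lie above 0 for Apod against 19 circles.

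By level, the highest of the genes that set the Slc47a1-positive cells apart was Mgp, encoding matrix Gla protein, an inhibitor of calcification. Mgp was found in 100% of them after thinning against 25% of the Slc47a1-negative cells, and its level over the 4 animals was 13494 ± 1051 CPM in the positive and 2999.8 ± 3389 CPM in the negative cells (mean ± SD, n = 4). The sodium-coupled amino acid transporter Slc38a2 was found in 93.3% against 18.8%, the FXYD-family regulator of the sodium pump Fxyd5 in 93.3% against 6.25%, and the insulin-like growth factor binding proteins Igfbp5 and Igfbp6 in 90% against 6.25% and 76.7% against 6.25%. The CCN-family gene Nov, the fibronectin gene Fn1, 1500015O10Rik, the sulfate transporter Slc26a2 and the bicarbonate transporter Slc4a10 completed the 10 genes with the largest difference in share in this direction. Col6a2, a chain of type VI collagen, was at 639 ± 139.9 CPM against 31.9 ± 37.4 CPM, and Cdh1, encoding E-cadherin, was found in 10% against 0% after thinning (16 of 30 against 1 of 32 cells at full depth).

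Among the leading genes of the Slc47a1-negative cells was Vtn (vitronectin), found in 0% of the positive and 71.9% of the negative cells after thinning. Apod, a lipid-binding lipocalin, was found in 20% and 84.4%, and was at 439 ± 322 CPM in the positive and 12392 ± 2142 CPM in the negative cells. Dcn was found in 6.67% and 65.6%, and was at 117 ± 27.8 CPM and 4399 ± 2643 CPM. The cystine transporter Slc7a11, Igfbp2, Itih5, Trf, Tcf4 and Slc6a13 were also among the 10 on this side. At full depth Slc6a13 had a UMI in 1 of the 30 positive cells and 27 of the 32 negative cells, Lum in 0 and 17, and the platelet-derived growth factor receptor gene Pdgfra in 3 and 18. Vtn and Slc6a20a are also high in pericyte-type cells, at 15477 and 1216 CPM, whereas of the 10 mural markers Kcnj8, Notch3, Tagln and Myh11 were at 0 UMIs in all 62 cells, Rgs5 had 5 UMIs in 5 cells, and Higd1b (8 UMIs), Atp13a5 (3 UMIs) and Abcc9 (1 UMI) each lay in 1 Slc47a1-negative cell. The ranges of the 4 animals did not overlap between the kinds for Mgp, Slc38a2, Col1a1, Dcn, Apod, Vtn or Slc6a13, and overlapped for Col1a2 and Col3a1. Of these genes Col1a1, Dcn, Slc6a13, Col1a2 and Col3a1 are in the member rule. A shallower cell needs higher levels of the rule genes to meet it. Mgp, Slc38a2, Apod and Vtn were among the 10 genes with the largest difference in share on their side. These ranges are therefore a description, and the share of all genes without overlap is not given here.

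**Figure D2:**
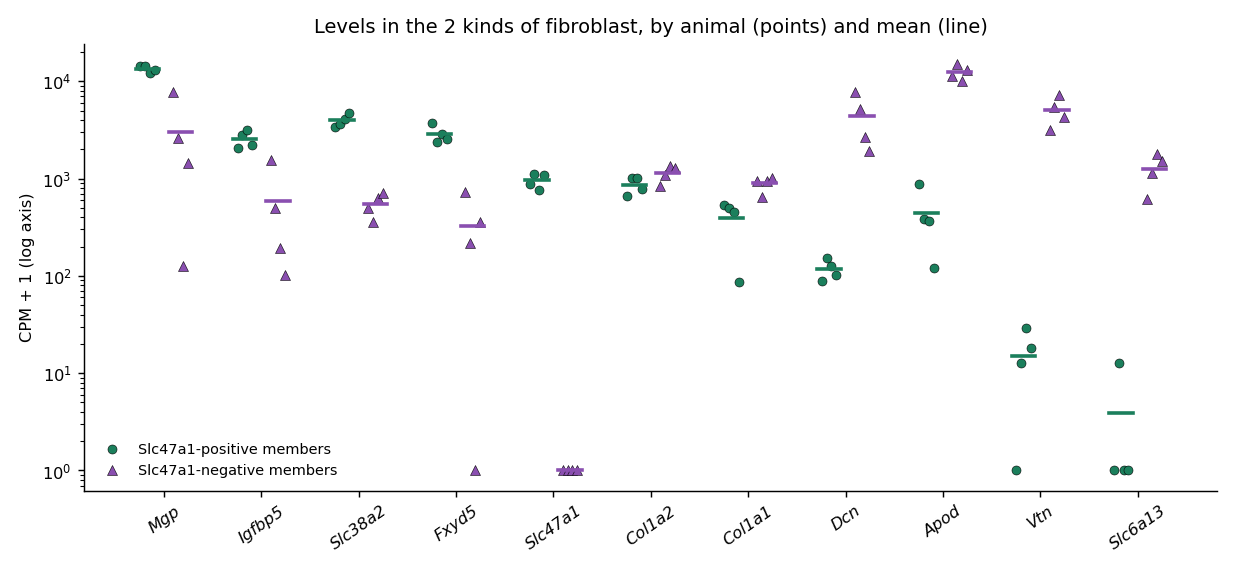
Levels in CPM + 1 on a log axis for 11 genes, with 1 point per animal and a line at the mean of the 4 animals; circles are Slc47a1-positive and triangles Slc47a1-negative cells. Mgp, Igfbp5, Slc38a2 and Fxyd5 lie higher in the positive cells, Dcn, Apod, Vtn and Slc6a13 higher in the negative cells, and the points of Col1a2 overlap.

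The border between the kinds was not sharp. When the thinned cells were clustered into 2 groups by Ward's method on 494 genes, without the 6 rule genes and Slc47a1, all 30 Slc47a1-positive cells fell in 1 group together with 12 Slc47a1-negative cells, and the other 20 negative cells formed the second group. Mgp had a UMI in 11 of the 32 negative cells. The member rule also met the kinds at different points: 19 of the 24 cells with exactly 3 of the 6 genes were Slc47a1-positive, whereas all 17 cells with 5 or 6 of them were negative. Just outside the rule, 50 cells had exactly 2 of the 6 genes and met every other condition. They held Mgp at 12589 CPM against 12476 CPM in the members with exactly 3, Col1a2 at 710 against 790 CPM and Dcn at 78.4 against 175 CPM, and 33 of the 50 had a Slc47a1 UMI.

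Among the Slc47a1-negative cells, Ptgds, which encodes prostaglandin D synthase, made up at least 5% of the UMIs of 6 cells, and these 6 held 49.6% of all Ptgds UMIs in fibroblasts. They came from all 4 libraries, as 1, 1, 3 and 1 cells. The limit of 5% was set after the values had been seen. Slc6a20a, a proline transporter, was at 1738 CPM in them and 646 CPM in the other 26 negative cells, and had 0 UMIs in the positive cells. Spp1, encoding osteopontin, was at 174 CPM in the 6 cells against 2405 CPM in the other 26. Aldh1a2, the retinoic acid synthase, had a UMI in 2 of the 6 and 7 of the 26 cells.

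The structural matrix genes were shared by all 4 animals. The fibrillar and network collagens, 14 genes, were all detected and summed to 3349 to 4095 CPM, of which Col1a2, Col1a1, Col6a2 (482 ± 121 CPM; mean ± SD, n = 4 here and below) and Col3a1 were the highest. The 18 basement membrane genes were all detected, at lower levels, led by the laminin chain Lamb2 (199 ± 18.8), the linker Nid1 (164 ± 22.9), Lamc1 (107 ± 36.3) and Col4a1 (98.9 ± 62.8). Of these 18 genes 16 were found in a larger share of the thinned Slc47a1-negative cells and 0 in a larger share of the positive ones, and they summed to 3095 CPM in the negative cells against 553 CPM in the positive cells. Lama1, a laminin chain of the outer brain membrane, was at 49.4, 30.1, 34.5 and 38.2 CPM and had 0 UMIs in the positive cells of every animal. Among 37 proteoglycan and matrix glycoprotein genes, Mgp (11552, 12614, 10077 and 10084 CPM), Igfbp5, Igfbp6 and Dcn led, and Tnc and Igfbp3 were at 0 UMIs. The collagen chaperone Serpinh1 (765 ± 248), the procollagen enhancer Pcolce (532 ± 188), Sec61b and Ppib led the 21 genes for collagen processing, and Cst3, Timp2, Timp3 and Htra3 led the 18 proteases and inhibitors. Cst3, a protease inhibitor that microglia express far more, was at 4112 ± 273 CPM in fibroblasts and 54334 CPM in microglia-type cells.

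Of 30 transporter and junction genes, 28 were detected. Slc38a2 (2098, 3209, 3497 and 3693 CPM) and Slc4a10 (864, 1253, 1403 and 1732 CPM) were the highest, followed by the gap junction gene Gja1 (907 ± 322) and Slc47a1 (721 ± 203). Ptgds (16242, 7199, 22351 and 10441 CPM) was the highest of the 14 genes of retinoid and lipid handling and its levels overlapped between the groups, and Apod (3365 ± 1555) and Apoe followed. Ptgds also had a UMI in 32.9% of all other passing cells, so a low count of it in a single cell is no sign of expression there; after thinning it was found in 56.5% of the fibroblasts, 8.67% of sampled endothelial-type cells and 12% of sampled microglia-type cells.

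The secreted signals were led by the chemokine Cxcl12 (352 ± 80.6), with Bmp4 (209 ± 100.4) and Gdf10 also among the highest, and the bone morphogenetic protein genes Bmp5, Bmp6 and Bmp7 had UMIs in 20, 24 and 29 cells. Cxcl1, Cxcl10, Il6 and C3 had 0 UMIs, and Ccl2 and Ccl7 lay in 5 and 4 cells. The receptors were led by thrombomodulin (Thbd, 891 ± 201), Fgfr1, the cytokine receptor subunit Il6st and Il11ra1. Of 28 transcription factors of meningeal and mesenchymal lineages, 24 were detected, led by Foxp1, Zic1 (436 ± 76.4), Foxc1 (323 ± 35.9) and Foxd1 (309 ± 102), and Foxc2 was at 234 ± 99.0 CPM against 4.17 CPM in other passing cells. Tmsb10, Anxa2, S100a11 and Anxa3 led the contractile and myofibroblast list, in which the smooth muscle genes Tagln, Cnn1 and Myh11 had 0 UMIs and Acta2 lay in 2 cells.

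Of 12 genes linked to the arachnoid, Ptgds had a UMI in 50 cells, Cldn11 in 33, Crabp2 in 31, Slc47a1 in 30, Slc16a11 in 21, Tjp1 in 20, Cdh1 in 17, Aldh1a2 in 9, Wnt6 in 3 and Dpp4 in 2, while the keratins Krt8 and Krt18 were at 0. Of 11 genes linked to perivascular and pial fibroblasts, Efemp1 had a UMI in 42 cells, Mgp in 41, Cxcl12 in 35, Slc6a13 in 28, Cyp1b1 in 23, Lama2 in 18, Col15a1 in 14, Lama1 in 11, Igf2 in 10, Slc22a6 in 9 and Ngfr in 0. Of the arachnoid list 4 genes were found in a larger share of the thinned Slc47a1-positive cells and 5 in a larger share of the negative ones, and of the perivascular and pial list 2 and 8.

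Outside the rule, the 15 genes with a UMI in at least 25% of fibroblasts and the largest ratio of mean level to all other passing cells were, in falling order, Col6a2, Col12a1, Mrap, Fam26e, Crabp2, Adamtsl3, Slc47a1, Slc35g1, Slc26a7, Foxc2, Gxylt2, Itih2, Cyp1b1, Eya2 and Itgbl1. The ratio was 77.7 for Col6a2, 71.4 for Col12a1 and 54.5 for Itgbl1. This ranking describes the chosen cells and is not a test.

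Markers of other cells were present to differing degrees. The summed level of 10 endothelial markers was 617 and 953 CPM without and 828 and 1261 CPM with inhibitors, with Cldn5 and Pecam1 at 0. Mural markers summed to 1407, 792, 1369 and 1261 CPM, led by Vtn, a mean of 1207 CPM against 801 CPM in all other passing cells and 28734 CPM in pericyte-type cells, and 1 Slc47a1-negative cell of the second animal with inhibitors held them at 352 UMIs per 10000 against 221 in the next highest cell. Astrocyte markers summed to 3332, 2677, 3163 and 4113 CPM, a mean of 3321 CPM against 4734 CPM in all other passing cells, with Gja1 the highest. Olfactory ensheathing markers summed to 5653, 2497, 2232 and 3425 CPM, a mean of 3452 CPM against 4387 CPM, led by Apod, with Sox10, Foxd3 and Prss56 at 0. Microglial markers summed to 198, 351, 1001 and 306 CPM, and a single Slc47a1-negative cell of the first animal with inhibitors held them at 261 UMIs per 10000 against 24.7 in the next highest cell. Of 7 markers of border macrophages 5 were at 0, Mrc1, Pf4 and Cd163 among them. Choroid plexus markers summed to 3629 and 3229 CPM without and 2163 and 2636 CPM with inhibitors, with Folr1, Otx2 and Prlr at 0; ependymal markers to 395 and 191 against 92.0 and 76.4 CPM, with Foxj1 at 0; and hemoglobin genes to 346 and 311 against 57.5 and 178 CPM. For these last 3 lists the groups did not overlap. Nor did they for other summed lists, those of heat shock and collagen processing genes among them, or for 36.4% of the single genes tested below. The part of the 3 lists in the comparison that follows was not tested.

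Whether the inhibitors changed expression in fibroblasts was tested with edgeR on the 4 sums. Of 1476 genes tested, 1 was called higher without inhibitors and 0 lower (0.0678% called), where a call needed a Benjamini-Hochberg adjusted p below 0.05 together with a log2 fold change beyond 0.58 in either direction. An unadjusted p under 0.05 was found for 74 genes (5.01%), and DESeq2 called the same 1 gene. The groups did not overlap for 537 genes (36.4%). The called gene was Igfbp7 (ENSMUSG00000036256, GRCm38 chromosome 5, 77349240 to 77408041, minus strand), which encodes a secreted binding protein of insulin-like growth factors that endothelial cells and pericytes make in quantity. It was at 839 and 1705 CPM without inhibitors and 196 and 255 CPM with them, so that both animals without inhibitors were higher. The log2 fold change was 2.50 ± 0.34 (SE; edgeR adjusted p = 0.00093).

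The call did not hold without 1 cell. Of 170 Igfbp7 UMIs in the second animal without inhibitors, 132 (77.6%) lay in a single Slc47a1-negative cell with 5569 UMIs, and the next highest fibroblast of any animal had 20. Over all 2338 pairs of a tested gene and a library with at least 20 UMIs, the top cell held a median of 27.5% and, at the 95th percentile, 50.0% of the UMIs. The same cell held 63 of the 71 Trf UMIs of its library and all 22 of Inmt and 16 of Dpep1. It had 4 of the 6 rule genes, with 46 Dcn, 33 Mgp and 9 Pdgfra UMIs, 0 of the 4 endothelial and 1 of the 4 mural genes of the rule, and a doublet score of 0.750. Without it, an alternative chosen after seeing the data, Igfbp7 was at 839 and 404 CPM against 196 and 255 CPM, a log2 difference of 1.32 ± 0.40 (SE), the edgeR adjusted p was 0.479, and edgeR called 0 of 1489 genes (63 had an unadjusted p under 0.05). Without the whole animal that this cell came from, which leaves 1 animal against 2 and takes that animal to vary like the others, Igfbp7 was still called (1.82, edgeR adjusted p = 0.00429). Over 15 alternatives its adjusted p ran from 5.49e-16 to 0.962.

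**Figure D3:**
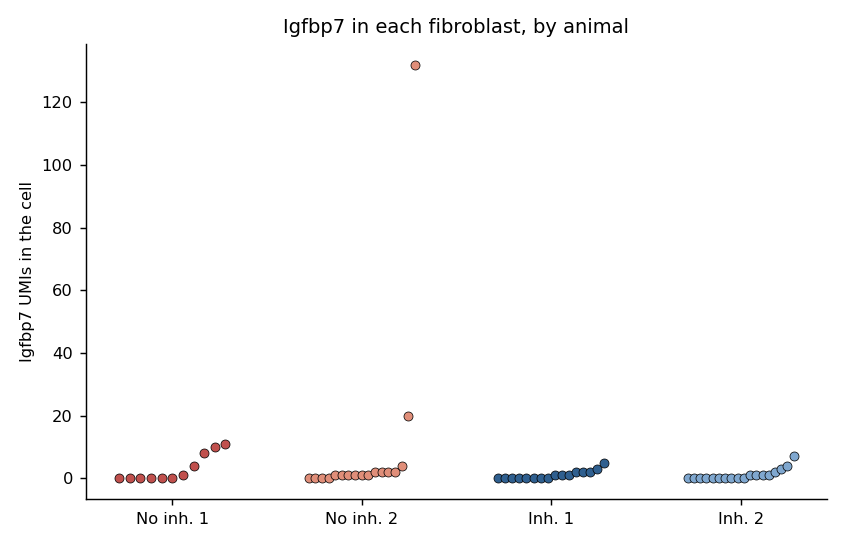
Igfbp7 UMIs in each fibroblast, 1 point per cell, by animal, with the 2 animals without inhibitors on the left and the 2 with inhibitors on the right. A single cell of the second animal without inhibitors has 132 UMIs, and every other cell has 20 or fewer.

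The 10 genes with the next smallest p whose groups did not overlap were not called, and their edgeR adjusted p ran from 0.0842 to 0.315. Slc6a20a was at 74.1, 60.2, 242 and 331 CPM, with both animals without inhibitors lower (log2 fold change -2.17 ± 0.52 SE, edgeR adjusted p = 0.144). These levels were 3, 6, 21 and 26 UMIs in 2, 3, 7 and 9 cells. In each animal 1 cell held 28.6% to 66.7% of them. The LIM-domain regulator Lmo4 was at 518, 712, 1254 and 1286 CPM, also lower without inhibitors in both animals. Nupr1, a stress-induced chromatin protein, was at 1481, 792, 483 and 420.2 CPM, the metallothionein Mt2 at 494, 782, 276 and 204 CPM, and the actin-binding Tmsb4x at 4419, 3780.2, 2462 and 1846 CPM, all higher without inhibitors in both animals. Ptgis, the prostacyclin synthase, was at 346, 211, 80.5 and 63.7 CPM and Hbb-bs, a hemoglobin chain, at 247, 201, 0 and 63.7 CPM. Inmt, a methyltransferase gene (log2 fold change 4.03), and the transferrin gene Trf (1.44) had 22 of 22 and 63 of 71 UMIs of the second animal without inhibitors in the cell with the most Igfbp7. Without that cell Trf had a log2 fold change of -0.015 and Inmt was no longer tested.

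The 2 kinds were also fitted alone, an alternative chosen after seeing the data. In the Slc47a1-negative cells edgeR called 5 of 216 genes (2.31%), 2 higher (0.926%) and 3 lower (1.39%) without inhibitors. Slc6a20a was lower by a log2 fold change of -2.34 (edgeR adjusted p = 0.00368), as were the glutamate transporter Slc1a3 (-1.80, adjusted p = 0.0439) and the nuclear RNA Malat1 (-0.64, adjusted p = 0.0326), and Rarres2, encoding chemerin, and the interferon-induced Ifitm3 were higher (1.85 and 1.58, edgeR adjusted p = 0.0282 each). Rarres2 is also 1 of the 7 ependymal markers, whose sum was higher in both animals without inhibitors, and the part of ependymal RNA in this call was not tested. In the second animal without inhibitors 61.1% of the 18 Rarres2 UMIs lay in 1 cell. The cell with the most Igfbp7 held 5569 of the 13903 UMIs of that animal's negative cells. No fit of the negative cells was run without it, and in the fit of all fibroblasts without it Rarres2 was no longer tested. The sums of the negative cells also differed in make-up. Negative cells of 6031, 2845 and 2855 UMIs, of 17953 in the first animal without inhibitors, held Mgp at 146, 134 and 49.0 UMIs per 10000. The cell with the most Igfbp7 held Mgp at 59.3. With inhibitors the highest were 142.6 in a cell of 1894 UMIs in the second animal and 4.57 in the first. The part of this mixture in the 5 calls was not tested. In the Slc47a1-positive cells edgeR called 0 of 1121 genes, and for 56 the unadjusted p was under 0.05. The negative cells of an animal held 13903 to 19595 UMIs, so few genes passed the filter, and the difference between the kinds was not tested.

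Of 13 immediate early and stress genes of the kind that tissue dissociation is known to induce, most had few UMIs in the fibroblasts of either group. Fos had 2, 3, 0 and 0 UMIs in the 4 animals and Egr1 5, 7, 0 and 0, so that both were seen without inhibitors only, in 3 and 6 cells. A count of 0 allows 3 UMIs over the 165469 UMIs of the inhibitor group, or 18.1 CPM. The pooled level without inhibitors was 1.97-fold that limit for Fos and 4.72-fold for Egr1. Counting error of the 5 Fos and 12 Egr1 UMIs themselves was not included, nor was the spread between cells and animals. These ratios are therefore not lower bounds. Jun had 3, 17, 2 and 2 UMIs and Junb 3, 1, 1 and 0. Dusp1, a phosphatase that shuts off MAP kinases, had 4, 8, 9 and 5 UMIs, and its levels overlapped between the groups. Ier2 had 4, 3, 0 and 1 UMIs, Zfp36 1, 1, 0 and 3, Socs3 0, 1, 0 and 2, Cyr61 1, 6, 7 and 0, Hspa1a 0, 2, 0 and 0, and Atf3 had none. Of these 13 genes only Klf4 (log2 fold change 0.40 ± 0.47 SE) and Nfkbia (-0.49 ± 0.53 SE) had counts enough for the test, and edgeR called neither (adjusted p = 0.972 for each).

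Described by list, 12 of 63 immediate early genes were tested, 6 higher and 6 lower without inhibitors, 0 were called by edgeR or DESeq2 and 0 had an unadjusted p under 0.05, with a median log2 fold change of 0.05 beside -0.01 over all 1476 genes. Of a 25-gene activation list that the study drew from sorted microglia of other animals, 7 were tested, 5 higher and 2 lower, with a median of 0.41; edgeR and DESeq2 called 0 and 0 had an unadjusted p under 0.05. The groups did not overlap for 5 of the 7, against 36.4% of all genes tested. Of 19 genes tabulated in a supplement for the whole-brain cells of these samples, and therefore not independent, 1 was tested. This gene, 1500015O10Rik, was at 1901 and 1434 against 1001 and 942 CPM (log2 fold change 0.70), and neither tool called it. The length of that list differs from the one in the study's text. The gene is also 1 of the 9 choroid plexus markers, whose sum was higher in both animals without inhibitors. Of 20 heat shock genes 14 were tested, with 9 higher, 5 lower, a median of 0.06 and 2 with an unadjusted p under 0.05.

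Matrix genes showed no common direction. The medians were -0.03 for 8 fibrillar collagens, 0.07 for 3 basement membrane genes, 0.16 for 21 proteoglycans and glycoproteins, 0.09 for 6 collagen processing genes and 0.14 for 9 proteases and inhibitors, and Igfbp7 was the only gene of these lists called by edgeR or DESeq2. Of the 16 transporter and junction genes tested, 15 were lower without inhibitors, beside 758 of all 1476 genes tested, with a median of -0.53. Either tool called 0 of them. An unadjusted p under 0.05 was found for 4, beside 5.01% of all genes tested, and the groups did not overlap for 10, beside 36.4%. Astrocyte markers, of which Gja1, Gjb6 and Slc4a4 are in both lists, had values in the same direction: 4 were tested, 3 were lower, 3 had an unadjusted p under 0.05, the groups did not overlap for 4, the median was -0.55, and edgeR and DESeq2 called 0. Their part in the transporter counts was not tested. Of the transporters Slc7a11 was at 346, 191, 460.1 and 535 CPM and Gja1 at 716, 752, 771 and 1388 CPM, while Slc47a1 itself was at 494, 953, 621 and 815 CPM and did not separate the groups. Of 12 lineage transcription factors 10 were lower, beside the same 758 of 1476, with a median of -0.38 and 1 at an unadjusted p under 0.05. The Slc47a1-positive cells held 55.7% and 86.1% of the fibroblast UMIs without and 81.9% and 75.1% with inhibitors, and the part of this mixture in the medians was not tested.

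Whether the effect of the inhibitors differed between fibroblasts and other cells was tested as an interaction in edgeR with the animal as a block, against 3260 microglia-type, 1478 endothelial-type and 106 pericyte-type cells that were chosen by their own marker genes. Against microglia-type cells 8 of 4617 genes were called (0.173%), 2 with a higher and 6 with a lower effect in fibroblasts. Dusp1 (ENSMUSG00000024190, GRCm38 chromosome 17, 26505590 to 26562128, minus strand) was among the 6. In microglia-type cells it was at 345 and 232 CPM without inhibitors and 9.48 and 4.04 CPM with them, whereas in fibroblasts it was at 98.7 and 80.2 CPM without and 104 and 63.7 CPM with them. The difference of the log2 effects was -5.30 ± 0.73 (SE; edgeR adjusted p = 1.2e-05), and Dusp1 was called under all 11 alternatives in which it was tested, with adjusted p up to 0.0201, DESeq2 included.

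Klf2, a transcription factor known for its response to flow in endothelial cells, also had a lower effect in fibroblasts. It was at 584 and 276 CPM without and 47.4 and 55.8 CPM with inhibitors in microglia-type cells, and at 395 and 471 CPM without and 334 and 344 CPM with them in fibroblasts (difference -2.55 ± 0.40 SE, edgeR adjusted p = 9.9e-05). It was called under 9 of 12 alternatives, not under DESeq2 (adjusted p = 0.525). In microglia-type cells alone, edgeR called the effect of the inhibitors on Dusp1 (adjusted p = 5.5e-124). There it did not call Klf2 (log2 fold change 3.09, edgeR adjusted p = 0.677), Hba-a1 (0.890) or Ifi27l2a (0.917). Hba-a1 (-7.39 ± 1.26) followed a level of 7080 CPM in the microglia-type cells of 1 animal without inhibitors, against 126 CPM in the other and 33.2 and 46.1 CPM with inhibitors, and had 0 to 76.4 CPM in fibroblasts; it was called under 5 of the 6 alternatives in which it was tested, not under DESeq2. Ifi27l2a (-2.98 ± 0.60) was at 123, 100.3, 863 and 178 CPM in fibroblasts, with 81.3% of the 75 UMIs of the first animal with inhibitors in 1 cell. It was called under 6 of 11 alternatives and not under DESeq2 (adjusted p = 1.00), and without the first animal with inhibitors or the second without them the difference was -1.69 or -1.82 and was not called. Igfbp7 (3.01 ± 0.47) was again called, and without the cell named above it was not (edgeR adjusted p = 0.540). Without that cell 4 genes were called, Dusp1, Klf2, Hba-a1 and Ifi27l2a, and Jund and Tmsb4x were among those that were not.

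Of the 25-gene list, 10 genes could be tested against microglia-type cells. Of these 9 had a lower effect in fibroblasts, with a median of -1.09 beside -0.07 over all genes. There edgeR called Dusp1, Klf2 and Jund, and DESeq2 called 1. Against endothelial-type cells 10 genes of the list were tested, and 9 had a higher and 1 a lower effect in fibroblasts. Their median was 0.57 beside -0.04 over all 4694 genes tested. An unadjusted edgeR p under 0.05 was found for 3, beside 164 of the 4694, and either tool called 0. Against pericyte-type cells 6 were tested, 3 higher and 3 lower, with a median of 0.17 beside 0.02, and either tool called 0. The summed level of the list was 3357 and 3329 CPM without and 2404 and 2445 CPM with inhibitors in fibroblasts, and 12016 and 7712 against 2542 and 2119 CPM in microglia-type cells. In pericyte-type cells it was at 1677 and 3284 against 2387 and 2175 CPM, and in endothelial-type cells at 5447 and 4319 against 5797 and 5433 CPM. The groups did not overlap in fibroblasts or microglia-type cells, where the exact two-sided permutation p was 0.333, the smallest that this design allows, and overlapped in the other 2 classes.

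**Figure D4:**
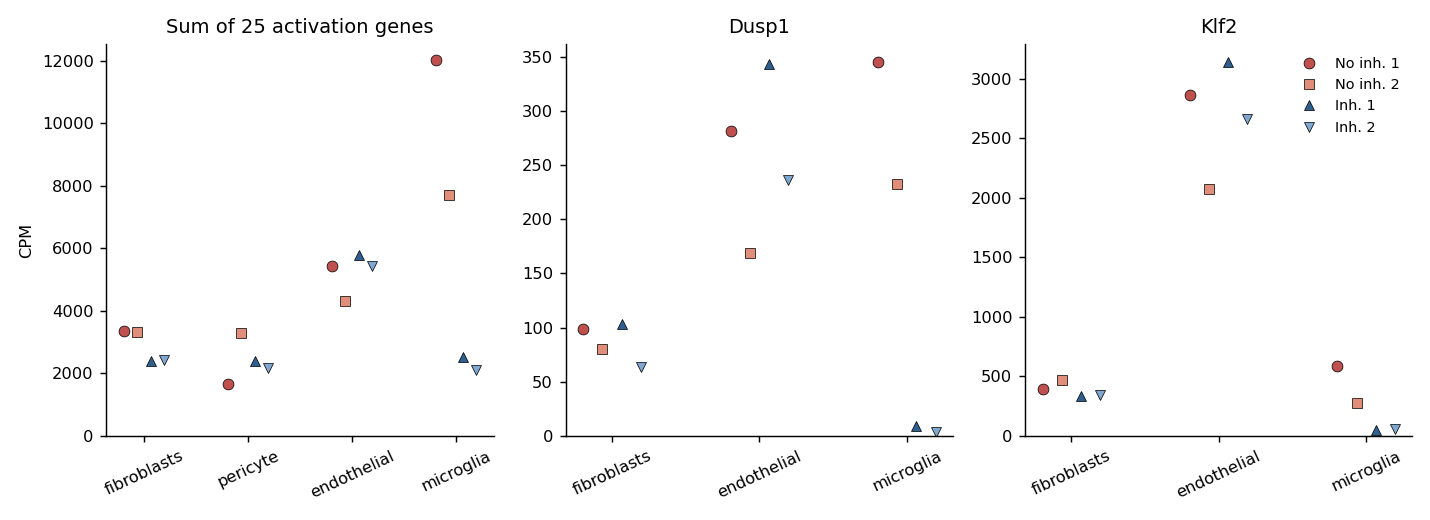
CPM by animal and cell class for the sum of the 25 activation genes and for Dusp1 and Klf2; circles and squares are animals without inhibitors and triangles those with them. In microglia-type cells the animals without inhibitors lie far above the others, whereas in fibroblasts the groups overlap for Dusp1 and all 4 animals lie between 334 and 471 CPM for Klf2.

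Against endothelial-type cells 1 of 4694 genes was called (0.0213%), Igfbp7, which was at 1674 and 1798 CPM without and 1897 and 1948 CPM with inhibitors there; the call was lost without the single cell (edgeR adjusted p = 0.982). Dusp1 was at 281 and 169 against 343 and 236 CPM in endothelial-type cells, and its effect did not pass the test of a difference from fibroblasts (0.48 ± 0.60 SE, edgeR adjusted p = 1.0). Against pericyte-type cells 2 of 790 genes were called (0.253%). Igfbp7 was one (2.22 ± 0.42 SE), lost without the single cell (edgeR adjusted p = 0.864), and Slc6a20a (ENSMUSG00000036814, GRCm38 chromosome 9, 123634770 to 123678885, minus strand) was the other. Slc6a20a was lower without inhibitors in fibroblasts and at 1477 and 1726 CPM without and 1002 and 754 CPM with inhibitors in pericyte-type cells (difference -3.10 ± 0.58 SE, edgeR adjusted p = 0.0150). It was called without the single cell too (edgeR adjusted p = 0.0117), but under 6 of 12 alternatives in all and not under DESeq2 (adjusted p = 0.507).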

How the data were processed

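Single-cell RNA was measured in 4 whole brains. Per the labels and the study's methods, the authors sequenced 10x 3′ libraries, aligned them to mm10 with Ensembl annotation by Cell Ranger 3.0.0, and deposited filtered matrices of UMI counts per gene and cell, not normalized. The libraries held 5134359 to 7529804 UMIs.

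Members and gene lists were chosen with earlier results of these data known. UMIs of the fibroblasts were summed per animal and tested with edgeR 4.0.16 (filterByExpr, TMM, robust quasi-likelihood test; R 4.3.3), and with DESeq2 1.42.0 as an alternative. Log2 fold changes are no inhibitors over inhibitors. Interactions used sums per animal and class, with genes of at least 10 UMIs in each class. The scripts were tested on simulated data. Doublets were scored against simulated pairs and kept, except in 1 alternative. Ccl19, which maps to 2 gene IDs, was not used. Coordinates are those of GRCm38 (GENCODE).

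Named were every called gene, the 10 next by p with groups that did not overlap, 13 activation genes, the 4 highest of each functional list, all of the arachnoid and perivascular lists, and the called interactions; others were named after their values were seen. Some items that this rule names are not reported here. Each library was 1 animal and the labels give a single batch. The edgeR p-values rest on the spread between 2 animals per group, moderated across genes. A very small p-value therefore rests mostly on the spread pooled over genes. The spread between animals includes the sampling of 11 to 18 fibroblasts per animal. Alternatives covered the test, scaling, filters, member rule, doublets, the replicate block and leaving out each animal.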

Additional observations from a re-analysis of the deposited data

Results flagged for a closer look

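The effect of the inhibitors differed between fibroblasts and another cell class, by the edgeR interaction test, in 8 cases. Against microglia-type cells it was lower in fibroblasts for Dusp1 (-5.30 on the log2 scale), Klf2 (-2.55), Hba-a1 (-7.39) and Ifi27l2a (-2.98, called under 6 of 11 alternatives), and higher for Igfbp7 (3.01). Igfbp7 was also flagged against endothelial-type cells (2.59) and pericyte-type cells (2.22), and all 3 of its calls were lost without the single cell that held most of its UMIs. Slc6a20a differed from pericyte-type cells (-3.10).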

How the results depend on the processing

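In fibroblasts 1 gene was called; it was 5 without the filter on low counts (of 11784 tested), and edgeR called 0 with at least 4 of 6 fibroblast genes (54 at an unadjusted p under 0.05), 0 with 0 genes of other types (18), 0 under the stricter cell filter (74), 0 without the cell with most Igfbp7 (63), 0 in Slc47a1-positive cells (56) and 5 in Slc47a1-negative cells. Leaving out 1 animal gave 1 to 21 calls, with 21 when the second animal without inhibitors was left out, 7 when the first was and 5 when the second with inhibitors was. With the replicate number as a block 11 genes were called; same-numbered animals correlated at 0.045, with only 2 pairs, so the numbers were not taken as a pairing.

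Against pericyte-type cells the 2 calls became 0 under DESeq2 (9 at an unadjusted p under 0.05), 1 under the stricter cell filter, 1 without the single cell and 0 to 1 on leaving out 1 animal. Against endothelial-type cells the 1 call became 0 under DESeq2 (27), 4 without the filter, 0 with 0 genes of other types (63), 0 without the single cell (163) and 0 to 12 on leaving out 1 animal. Against microglia-type cells the 8 calls became 1 under DESeq2, 0 with 0 genes of other types (61), 4 without the single cell and 4 to 15 on leaving out 1 animal. The cause was not tested.

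The summed level of the 15 markers rose from 8360 to 11005 CPM with at least 4 of 6 genes and to 11915 CPM with 0 genes of other types. The immediate early median of 0.05 over 12 genes was 0.96 over the 3 tested with at least 4 of 6 genes. It was 0.28 over 4 genes under the stricter filter and 0.075 to 0.28 on leaving out 1 animal. It had no value with 0 genes of other types, where no gene was tested. The activation median of 0.41 over 7 genes was 0.33 without the low count filter and 0.23 to 0.41 on leaving out 1 animal. With 0 genes of other types only 1 gene of the activation list was tested, at -0.33. Trf turned to -0.74 with 0 genes of other types and to -0.015 without the single cell, and Klf4 ranged from -0.10 to 0.80 on leaving out 1 animal. Of the values for single genes under the alternatives, 210 kept their direction and side of the threshold, 17 newly passed it, 61 no longer did and 3 turned. With 62 cells, a gene of few UMIs could not be tested.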
